A study of Mus musculus with 4 samples.

Results

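Target genes of the FOXO transcription factors were followed on 4 Affymetrix arrays of mouse embryonic stem cells in which the kinase Akt was either left alone or constitutively active. The genes were Irs2, Txnip, Sod2, Cat, Gadd45a, Gadd45b, Ccng2, Cdkn1a and Cdkn1b, all known as FOXO targets. Every probe set that the platform annotation assigns to 1 of these 9 symbols alone was taken, which gave 14 probe sets of the 12422 on the array that are not array controls. Of these 14, 13 were above the detection floor on at least 1 array and 11 on all 4.

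All cells were of the feeder-free E14tg2a line, and total RNA was measured. Control cells were sampled in medium holding 3000 U/ml of LIF, leukemia inhibitory factor, and separately after 4 days without it. Cells titled Akt12, which express a constitutively active Akt (called Akt cells), were sampled in the same 2 media. LIF is the cytokine that holds mouse stem cells in the undifferentiated state, and the study asked what it does in cells with overactive Akt. The sources used here do not give the form and promoter of the introduced Akt, whether Akt12 is a single clone or whether control cells carry a vector. A clone's own difference from its parent line therefore cannot be told apart from an effect of Akt. Each of the 4 groups is 1 array, so no difference between arrays has a replicate check.

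FOXO proteins are forkhead transcription factors that are active when insulin and growth factor signalling is low. Akt, the kinase downstream of phosphoinositide 3-kinase, phosphorylates them, 14-3-3 proteins then hold them in the cytoplasm, and their target genes lose an activator. The targets serve feedback on insulin signalling (Irs2), redox control (Txnip, Sod2, Cat), the response to DNA damage and stress (Gadd45a, Gadd45b) and cell cycle arrest (Ccng2, Cdkn1a, Cdkn1b). Most of them also answer to other factors, such as p53 for Cdkn1a and Gadd45a and NF-kB for Sod2 and Gadd45b. Protein activity and FOXO location were not measured here.

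Promoter windows were read from RefSeq (build GRCm38.p6), from 250 bases before to 50 bases after the annotated start, and all 9 genes matched, Cdkn1a with 2 starts, which gave 10 windows. They were searched on both strands for the FOXO element TTGTTTAC, the insulin response element TTGTTTTG, the forkhead core TGTTT, which lies inside both of those words, the E-box CACGTG and the CCAAT box, the letters CCAAT. The 4 windows shown are those of the 3 genes that hold a full FOXO or insulin response element, and of Gadd45b, whose probe set had the widest range and whose window holds none of the forkhead words. Capitals mark forkhead words, and each run is written 5′ to 3′ along the gene.
Irs2, chr8:11008880-11009179, minus strand: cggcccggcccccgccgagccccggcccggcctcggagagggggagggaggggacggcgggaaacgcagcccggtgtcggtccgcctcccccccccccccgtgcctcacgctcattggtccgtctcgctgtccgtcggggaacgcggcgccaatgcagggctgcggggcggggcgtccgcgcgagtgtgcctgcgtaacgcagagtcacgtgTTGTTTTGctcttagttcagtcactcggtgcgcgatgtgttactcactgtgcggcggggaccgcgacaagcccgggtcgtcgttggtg
Txnip, chr3:96557707-96558006, plus strand: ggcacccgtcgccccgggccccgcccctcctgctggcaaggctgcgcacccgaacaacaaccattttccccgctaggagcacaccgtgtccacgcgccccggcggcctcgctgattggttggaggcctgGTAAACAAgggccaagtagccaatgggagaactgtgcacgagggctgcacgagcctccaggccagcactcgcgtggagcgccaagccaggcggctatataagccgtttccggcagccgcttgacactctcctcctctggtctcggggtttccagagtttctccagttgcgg
Ccng2, chr5:93267323-93267622, plus strand: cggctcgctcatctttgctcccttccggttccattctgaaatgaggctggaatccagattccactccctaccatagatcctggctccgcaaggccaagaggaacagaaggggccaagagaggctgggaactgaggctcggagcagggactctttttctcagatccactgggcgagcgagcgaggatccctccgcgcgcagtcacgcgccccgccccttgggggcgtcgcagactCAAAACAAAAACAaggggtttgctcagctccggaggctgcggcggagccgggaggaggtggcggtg
Gadd45b, chr10:80929841-80930140, plus strand: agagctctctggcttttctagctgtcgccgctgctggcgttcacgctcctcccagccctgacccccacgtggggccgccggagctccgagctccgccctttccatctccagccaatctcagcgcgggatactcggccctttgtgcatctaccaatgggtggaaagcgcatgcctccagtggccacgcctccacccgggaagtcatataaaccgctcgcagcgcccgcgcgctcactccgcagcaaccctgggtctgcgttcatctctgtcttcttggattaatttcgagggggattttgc

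The FOXO element stands on the minus strand of the Txnip window with its first base at position -121 from the start, and it occurs in 1.23% of the 32851 mouse promoter windows of this length. The insulin response element occurs in 2.51% of them, and it begins at -38 in Irs2, directly after an E-box at -44, and at -16 in Ccng2 on the minus strand. The forkhead core was in 4 of the 10 windows (Irs2, Txnip, Ccng2, and Cdkn1b at -245 and -17), against 50.5% of all windows. The E-box was in the Irs2 and Gadd45b windows, against 7.15% of all, and the CCAAT box in 7 of the 10 windows, against 37.4%. The windows of Sod2, Cat, Gadd45a, Gadd45b and both Cdkn1a starts hold none of the 3 forkhead words, which says only that these letters are not in these stretches.

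**Figure D1:**
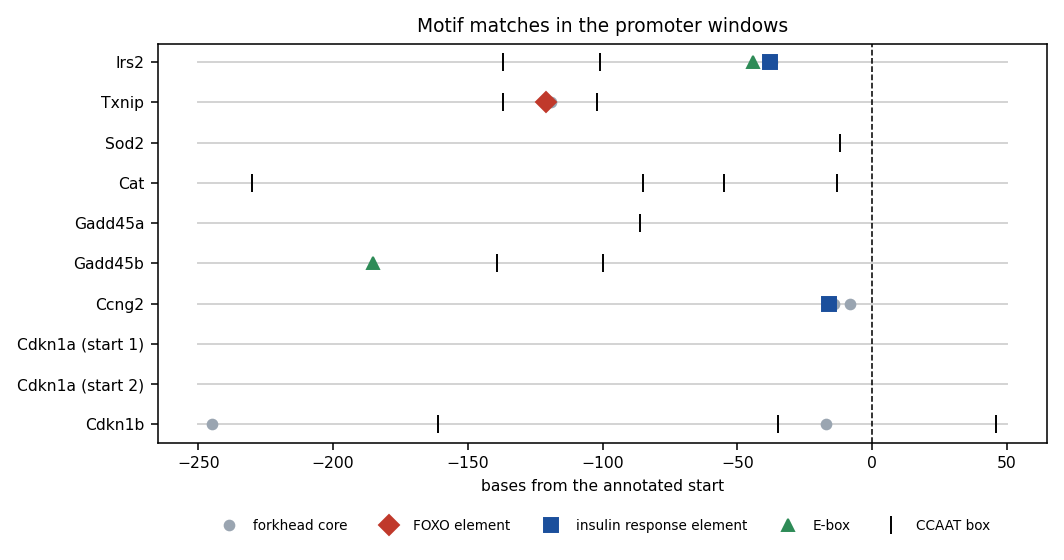
Matches to the 5 motif words in the 10 promoter windows of the 9 genes, by distance in bases of the first base of each match from the annotated start (x axis, dashed line at the start). The FOXO element is seen in Txnip alone, and the insulin response element in Irs2 and Ccng2.

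All values below are intensities after quantile normalization, which gives every array the same distribution, and values under 15.8, the 40th percentile, were set to that floor before log2 was taken. The deposited arrays differed in overall level, with 2% trimmed means from 80.3 to 121, and 59.93% to 59.95% of probe sets were above the floor on each. Without any scaling the median log2 difference of all probe sets was -0.51 for Akt against control with LIF and -0.23 without LIF, and -0.25 for LIF withdrawal in control cells. Scaled to the spiked hybridization controls it was 0.14 for Akt against control with LIF and -0.16 for LIF withdrawal in Akt cells. The ratio of 3′ to 5′ signal of actin, which reads RNA integrity, was 2.33 and 1.66 in control cells with and without LIF, and 3.04 and 2.48 in Akt cells. The same ratio for Gapdh was 3.03 and 3.19 in control cells, and 3.05 and 2.46 in Akt cells. Of 10 stem cell markers, 9 were above the floor on every array and Esrrb on none. Their summed level was 11120 and 11630 in control and Akt cells with LIF, 7663 in Akt cells without LIF and 4378 in control cells without LIF. The 9 fibroblast markers summed to 617 in control cells without LIF against 288 to 343 on the other arrays, with Pdgfrb and Postn under the floor on all. Col1a2 and Dcn, at 177 and 153, were the largest parts of the 617, whereas Thy1, at 27.6, was lowest on that array. The 6 trophoblast markers summed to 1770 in control cells without LIF against 613 to 732 elsewhere. Krt8 and Krt18, at 768 and 627, were the largest parts of the 1770, whereas Tfap2c, at 226, was lowest on that array. The 9 endoderm markers summed to 339 in control cells with LIF and to 887 to 981 on the other arrays, with Ttr under the floor on all. Dab2 and Col4a1, at 218 and 548, were the largest parts of the sum in control cells without LIF. Lama1, at 6.9, and Sox7, at 14.35, were under the floor there. Counted above the floor, 5 and 4 endoderm markers were found in control cells with and without LIF, and 8 and 7 in Akt cells. The array of control cells without LIF thus stood apart in the stem cell, fibroblast and trophoblast sums and that of control cells with LIF in the endoderm sum, and the part of these markers in the values of the FOXO targets was not tested.

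Irs2 and Gadd45b had lower levels in Akt cells than in control cells in both media, though 1 of the Gadd45b probe sets was only 1.13-fold lower with LIF. In bulk RNA, fewer cells of a type and less RNA per cell cannot be told apart. Sod2 was at a higher level in Akt cells in both media after normalization, and Cdkn1a was higher with LIF alone. Ccng2 and 1 Txnip probe set were lower in Akt cells in the medium without LIF, set against the control array with the lowest stem cell marker sum. Cat and Gadd45a differed little, and Cdkn1b was at the limit of detection.

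**Figure D2:**
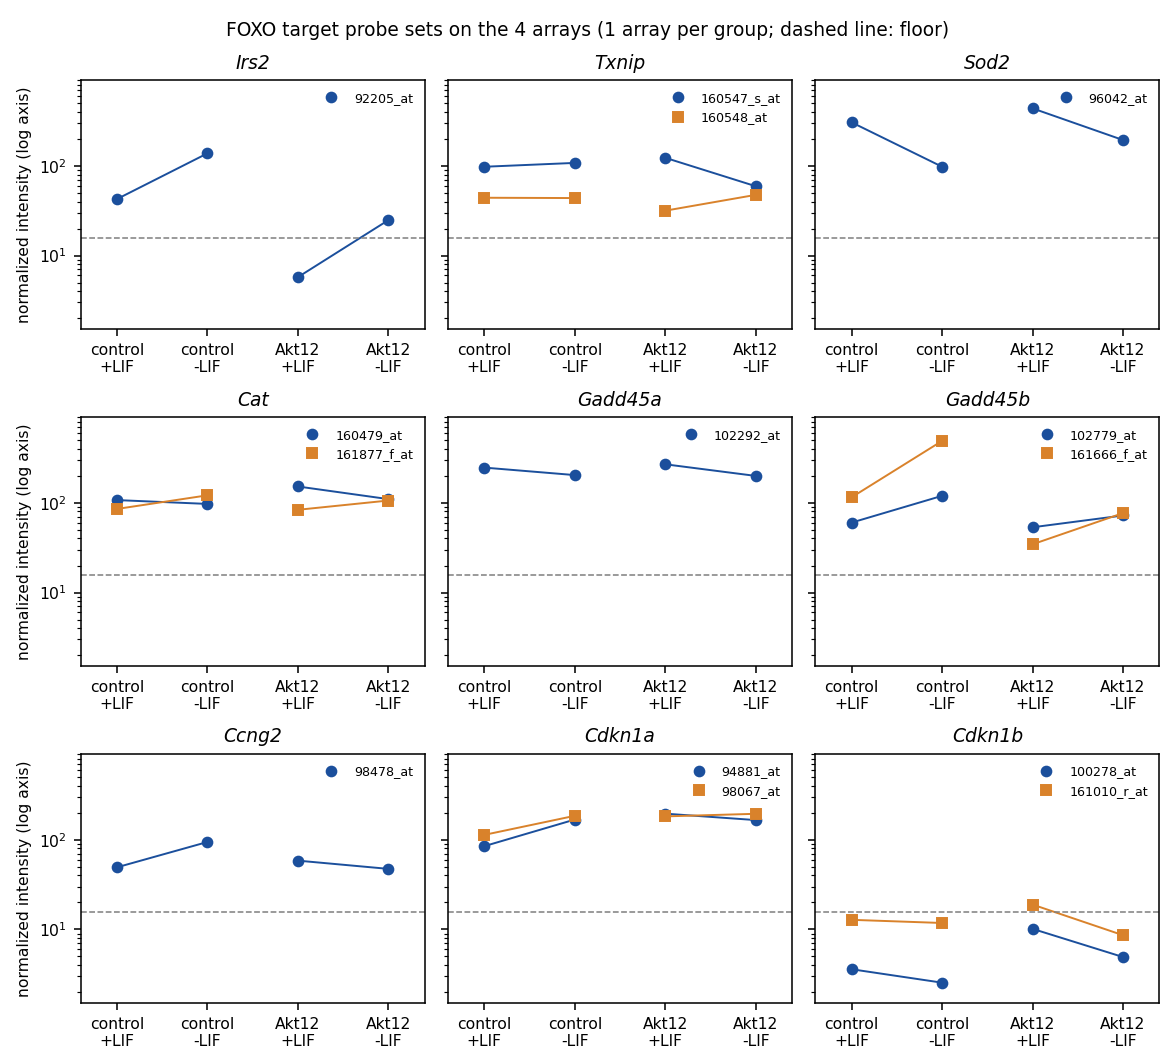
Normalized intensity (y axis, log scale) of the 14 probe sets on the 4 arrays, 1 panel per gene, 1 marker shape per probe set, with lines joining the 2 media of a line of cells and a dashed line at the floor of 15.8. Irs2 and the Gadd45b f set sit lower on both Akt12 arrays than on both control arrays. The plain Gadd45b set is at 72.2 in Akt cells without LIF, above 60.2 in control cells with LIF. Sod2 is lowest without LIF, at 97.75 and 194, and Cdkn1b lies under the floor but for 1 array of its r set, at 18.9.

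Irs2 encodes insulin receptor substrate 2, the adaptor that links the insulin and IGF receptors to phosphoinositide 3-kinase, and its induction by FOXO is a known feedback. Its 1 probe set gave 42.7 and 138 in control cells with and without LIF, and 5.75 and 24.8 in Akt cells. The Akt array with LIF was under the floor, and both Akt arrays were below both control arrays. Irs2 was thus at least 2.71-fold lower in Akt cells with LIF and 5.56-fold lower without LIF. LIF withdrawal went with a 3.23-fold higher level in control cells and an at least 1.57-fold higher level in Akt cells. In the fit over both media, the log2 difference of Akt against control was -1.96 ± 0.35 (SE), with an adjusted p of 0.18 (limma, 8417 probe sets). That fit used the floor for the array under it. With no floor and an offset of 16 the same difference was -1.67 with an adjusted p of 3.94e-04, and under the other alternatives that p lay from 0.052 to 0.83 in limma, while flooring at the 60th percentile put both arrays with LIF under the floor, where no difference can be seen.

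Txnip encodes the thioredoxin-interacting protein, which binds thioredoxin and limits glucose uptake, and it is known to be induced by FOXO and by glucose. The set with the suffix s, whose probes are shared by related transcripts, gave 97.75 and 108 in control cells with and without LIF, and 123 and 59.3 in Akt cells. The Akt array without LIF was thus the low one, 2.07-fold below Akt cells with LIF and 1.82-fold below control cells without LIF. The other set gave 44.1, 43.8, 31.65 and 47.5 in the same order, so here the Akt array with LIF was the low one. The probe sets went opposite ways within the Akt cells, with log2 differences of -1.05 and 0.59 after LIF withdrawal. Their gap of -1.64 there was larger than the SD between probe sets of one gene, which was 0.351 over 829 genes in that comparison. With values as deposited the s set was 0.26 lower in log2 in Akt cells with LIF in place of 0.33 higher, and the other set 0.21 lower without LIF in place of 0.12 higher.

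Sod2 encodes the manganese superoxide dismutase of mitochondria, a classic FOXO3 target and also induced by NF-kB. Its 1 probe set gave 305 and 97.75 in control cells with and without LIF, and 438 and 194 in Akt cells. Both arrays without LIF were below both arrays with LIF. The level was 3.12-fold lower after LIF withdrawal in control cells and 2.25-fold lower in Akt cells. Over both lines this was a log2 difference of -1.41 ± 0.31 (SE), with an adjusted p of 0.33 in limma. Akt cells were 1.43-fold above control cells with LIF and 1.99-fold above without LIF, though with values as deposited the difference with LIF turned to -0.06 in log2. Superoxide dismutase 1, the cytosolic enzyme, had log2 differences of -0.49 and -0.09 after LIF withdrawal in control and Akt cells.

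Cat encodes catalase, which removes hydrogen peroxide in peroxisomes. The plain probe set gave 107 and 97.2 in control cells with and without LIF, and 152 and 110 in Akt cells. The set with the suffix f, which marks probes that match several similar sequences, gave 85.4 and 121, and 83.6 and 106. The first was lower without LIF in both lines and the second higher in both, so LIF withdrawal gave no common direction. No difference of either set reached 2-fold in any of the 4 comparisons. The Akt against control values of the plain set, 0.50 and 0.18 in log2, turned to -0.07 and -0.15 with values as deposited.

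Gadd45a and Gadd45b encode small stress-response proteins that bind PCNA, p21 and the kinase MTK1. The Gadd45a probe set gave 247 and 204 in control cells with and without LIF, and 269 and 199 in Akt cells. The range from highest to lowest was 1.35-fold, and Akt cells differed from control cells by 0.12 with LIF and -0.03 without LIF in log2, the former turning to -0.43 with values as deposited. The Gadd45b set with the suffix f gave 115 and 490 in control cells, and 34.5 and 76.8 in Akt cells. Both Akt arrays were below both control arrays, and in each line the array without LIF was the higher. The level was 3.34-fold lower in Akt cells with LIF and 6.38-fold lower without LIF, and LIF withdrawal went with a 4.25-fold higher level in control and 2.23-fold in Akt cells.

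The plain Gadd45b set gave 60.2 and 120 in control cells and 53.4 and 72.2 in Akt cells. It had the same direction in all 4 comparisons with smaller sizes, 1.13-fold and 1.66-fold lower in Akt cells and 1.99-fold and 1.35-fold higher without LIF. Only the f set thus reached 2-fold. Between the lines, the plain set minus the f set was 1.57 in log2 with LIF and 1.95 without. Both gaps were larger than the SD between probe sets of one gene, 0.36 and 0.41 in these comparisons. Both probe sets of Gadd45b thus had the control array without LIF highest and the Akt array with LIF lowest. For the f set the log2 difference of Akt against control over both media was -2.21 ± 0.34 (SE) with an adjusted p of 0.14, and for the plain set it was -0.45 ± 0.31 with an adjusted p of 0.85 (limma). The adjusted p of the f set was 0.017 when only the 6511 probe sets above the floor on all arrays were fitted, 0.029 with 1 probe set per gene, 0.038 as deposited and 7.65e-05 with no floor. It was 0.075 scaled to the trimmed mean, 0.074 with a variance trend, 0.39 scaled to the hybridization controls, and 0.22 and 0.44 when floored at the 20th and 60th percentiles. The family member Gadd45g, which was not in the group, went another way. It gave 50.75 and 23.8 in control cells and 32.3 and 88.4 in Akt cells, so it was 0.65 lower in log2 in Akt cells with LIF and 1.89 higher without LIF.

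Ccng2 encodes cyclin G2, an unusual cyclin that slows the cell cycle and that FOXO factors induce in quiescent cells. Its 1 probe set gave 49.3 and 94.4 in control cells with and without LIF, and 58.5 and 47.3 in Akt cells. The control array without LIF stood above the other 3, which lay within 1.24-fold of each other. The log2 difference of Akt against control was 0.25 with LIF, turning to -0.30 with values as deposited, and -0.997 without LIF, a 1.99-fold lower level. LIF withdrawal gave 0.94 in control cells and -0.31 in Akt cells. Cyclin G1, a p53 target, differed by 0.50 and 0.08 between the lines with and without LIF.

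Cdkn1a encodes p21, the cyclin-dependent kinase inhibitor of the p53 response. The first of its 2 probe sets gave 84.8 and 168 in control cells with and without LIF, and 195 and 166 in Akt cells. The second gave 113 and 185 in control cells, and 182 and 195 in Akt cells. In both sets the control array with LIF was the low one and the other 3 arrays were close together. The summed endoderm markers were also lowest on that array, 339 against 887 to 981. Singly, Gata4, Sox17, Dab2 and Col4a1 were lowest there, whereas Lama1 and Sox7 were lowest in control cells without LIF. The part of these markers in the Cdkn1a values was not tested. With LIF, Akt cells were 2.3-fold above control cells by the first and 1.61-fold by the second, and without LIF the log2 differences were -0.02 and 0.07, the latter turning to -0.23 with values as deposited. LIF withdrawal in control cells went with a 1.98-fold and 1.63-fold higher level, and in Akt cells with log2 differences of -0.24 and 0.10, the latter turning to -0.12 when scaled to the hybridization controls.

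Cdkn1b encodes p27, the inhibitor of cyclin E and CDK2 complexes that FOXO factors are known to induce. The plain probe set gave 3.6 and 2.55 in control cells, and 10.2 and 4.92 in Akt cells, all under the floor. The set with the suffix r gave 12.8 and 11.8 in control cells, and 18.9 and 8.62 in Akt cells, with the Akt array with LIF alone above the floor, at least 1.2-fold above Akt cells after withdrawal and above control cells in LIF. The other comparisons of Cdkn1b had both arrays under the floor. The related inhibitor Cdkn1c (p57) was well measured at 765 and 1282 in control cells and 1494 and 2466 in Akt cells, with log2 differences between the lines of 0.97 with LIF and 0.94 without.

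Akt and control cells were first compared in the medium with LIF. There, 5 of 8 measured endoderm markers were at least 2-fold higher in Akt cells, against 3.5% of all genes. Of the 8, Gata4, Gata6 and Sox17 were under the floor in control cells with LIF, so they could only be higher. Of 13 measured member probe sets, 3 were at least 2-fold different, the first Cdkn1a set higher and those of Irs2 and Gadd45b (f set) lower, against 6.78% of the 7930 probe sets measured. By direction the background was 3.28% higher and 3.51% lower. In this pair Irs2 passed the floor on the control array alone, so it could only be lower. The Cdkn1b r set passed it on the Akt array alone, so it could only be higher. The count and the median of the members include these. The median log2 difference of the members was 0.25 and that of all probe sets 0.01. With values as deposited the former was -0.30 and the latter -0.51.

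Without LIF, 2 of 12 measured member probe sets, Irs2 and the Gadd45b f set, were at least 2-fold lower in Akt cells and none higher, against 13.4% of 7991 probe sets different, 5.59% higher and 7.85% lower. The members had a median of -0.11 and all probe sets of 0.06. Just short of 2-fold were Ccng2 with -0.997 and Sod2 with 0.99 in log2. Over the 11 member probe sets above the floor on all arrays, 6 had 1 sign in both media, 3 higher and 3 lower in Akt cells, and of all 6511 such probe sets 51.7% did.

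**Figure D3:**
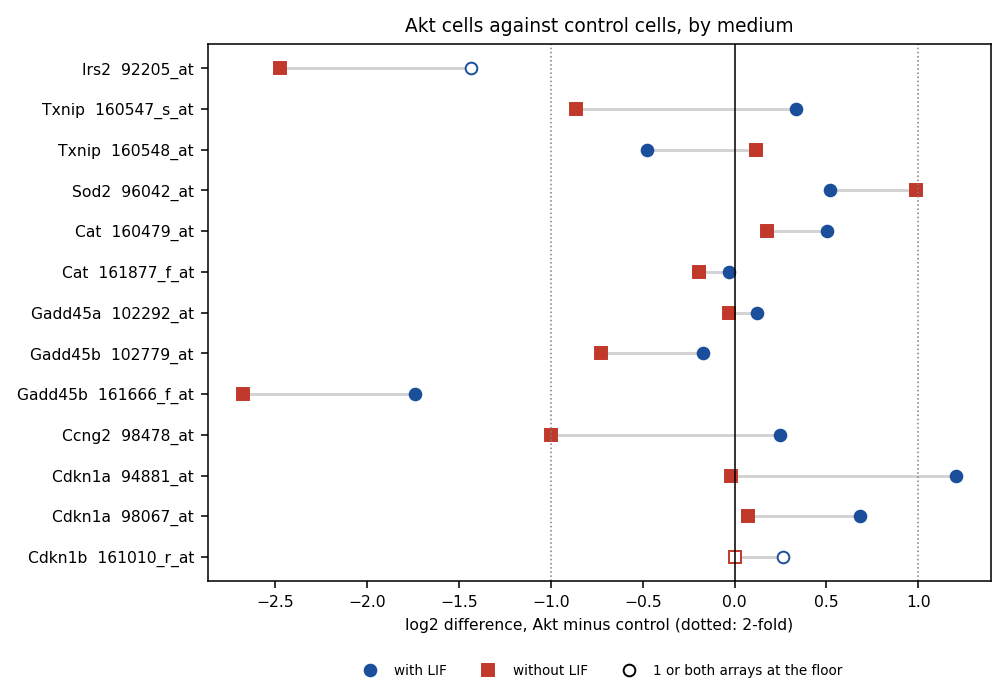
Log2 difference of Akt cells minus control cells (x axis) for the 13 probe sets above the floor on at least 1 array, with LIF (circles) and without (squares), open where an array was at the floor and dotted lines at 2-fold. Irs2 and the Gadd45b f set lie beyond -1 in both media, and most others lie between the dotted lines.

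LIF withdrawal in control cells went with a lower stem cell marker sum and with differences of at least 2-fold in 3 members. Of 12 measured probe sets, Irs2 and the Gadd45b f set were at least 2-fold higher and Sod2 lower, against 13.4% of 7985 probe sets different, 7.19% higher and 6.19% lower. The plain Gadd45b set with 0.99, the first Cdkn1a set with 0.98 (the second had 0.71) and Ccng2 with 0.94 were just short of 2-fold. Scaled to the trimmed mean, 5 of 12 member probe sets were at least 2-fold higher, and 649 of all 7988 probe sets were. The members' median was 0.61 and that of all probe sets -0.02.

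In Akt cells, 1 of 13 measured members was at least 2-fold higher without LIF, the Gadd45b f set, and 2 were lower, Sod2 and the Txnip s set, against 6.38% of 7918 probe sets different, 2.87% higher and 3.51% lower. The members' median was -0.24 and that of all probe sets 0.01. Irs2 passed the floor here on the array without LIF alone, so it could only be higher. The Cdkn1b r set passed it on the array with LIF alone, so it could only be lower. The response of the Akt cells minus that of the control cells was -1.24 for Ccng2, -1.22 and -0.61 for the Cdkn1a probe sets, -1.04 for Irs2 with 1 array at the floor, -0.93 and -0.55 for Gadd45b, and -1.20 and 0.60 for Txnip. It was 0.47 for Sod2. These differences between the lines have no residual error with 4 arrays and were not tested.

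**Figure D4:**
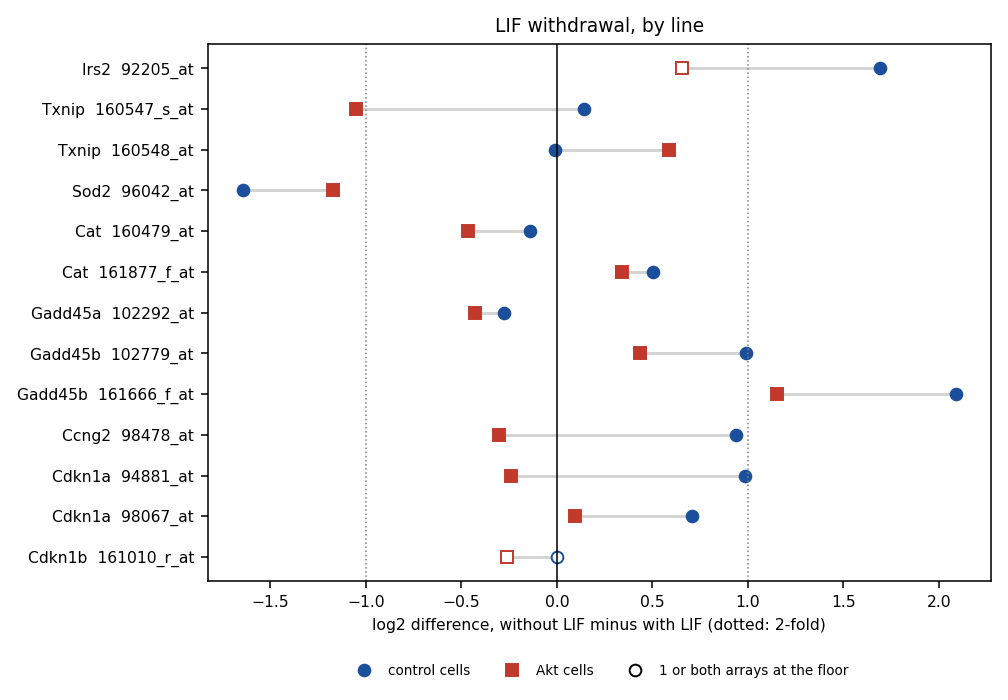
Log2 difference without LIF minus with LIF (x axis) for the same 13 probe sets in control cells (circles) and Akt cells (squares), open where an array was at the floor and dotted lines at 2-fold. Sod2 lies below -1 in both lines, and the Ccng2 and Cdkn1a values of control cells, between 0.71 and 0.98, lie to the right of those of Akt cells.

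An additive fit with limma used line and medium as terms over all 4 arrays, with 1 residual degree of freedom per probe set and the difference between the responses as its error. For Akt against control over both media, 5 of 8417 probe sets (0.0594%) passed an adjusted p of 0.05, none of them a member. At an unadjusted p under 0.05, 3 of 13 members passed, the Gadd45b f set, Irs2 and Sod2, against 8.22% of all. For LIF withdrawal over both lines no probe set passed (0%), and at an unadjusted p under 0.05 the same 3 members did, against 7.7% of all. With no separate cultures named, such p-values rest on these 4 arrays alone.

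The profiles most like those of the 3 member probe sets with the widest log2 range among those above the floor on all 4 arrays (Irs2 was not) were looked up among the other probe sets above the floor on all arrays. Likeness was the root mean square distance of log2 profiles centred on their own mean, over 4 arrays. For the Gadd45b f set these were Fhl1 (distance 0.12), the tropomyosin gene Tpm1 (0.14) and Rbms1 (0.18). The other Gadd45b probe set was at 0.99, further from it than these. For Sod2 they were the lysosomal protease gene Ctsa (0.10), the retromer gene Vps26a (0.11) and Frrs1 (0.11). For the first Cdkn1a set they were Gpr12 (0.07), the heme oxygenase gene Hmox1 (0.11) and the chloride channel gene Clcn3 (0.12), with the second at 0.19.

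Among the genes of the FOXO factors and their control by Akt, Foxo3 gave 117 and 93.5 in control cells with and without LIF and 149 and 140 in Akt cells, and Foxo4 gave 68.8, 123, 96.9 and 94.1. Foxo3 was thus 0.35 and 0.58 higher in log2 in Akt cells with and without LIF, and Foxo4 0.49 higher and 0.39 lower, where with values as deposited both differences with LIF turned negative (-0.24 and -0.06). Akt1 had -0.13 and -0.65, which does not check the label, because where its probes lie relative to the introduced Akt is not known here. Akt2 was above the floor on 2 arrays, at 33.6 (control, LIF present) and 18.7 (Akt, LIF absent). Of 17 measured genes of this arm, 1 was at least 2-fold higher and 3 lower in Akt cells with LIF, and 1 higher and none lower without LIF. Of all genes, 3.5% were higher and 3.64% lower with LIF, and 5.88% and 8.12% without. The genes of the arm past 2-fold were the lipid phosphatase gene Inpp5d, higher in both media (log2 1.40 and at least 2.41, with another probe set at 0.58 and -0.07), and, lower with LIF, Sgk1, Pik3r2 and Akt2. Pik3r2 and Akt2 were under the floor on the Akt array with LIF, so in that pair they could only be lower. Inpp5d was under the floor in control cells without LIF, so there it could only be higher. Sgk1, a kinase that also phosphorylates FOXO, gave 840 and 211 in control cells and 362 and 354 in Akt cells. Of 4 measured 14-3-3 genes, Ywhaz, Ywhae and Ywhag had log2 differences from -0.09 to 0.08 between the lines, and Ywhab had 0.20 with LIF and -0.56 without.

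Other known FOXO targets were found on both sides. Of 27 measured with LIF, 2 were at least 2-fold higher in Akt cells and 1 lower, against 3.5% and 3.64% of all genes, with a median of 0.03. As deposited these were 0 higher and 4 lower with a median of -0.50. Of all 8029 probe sets measured as deposited, 86 were higher and 1297 lower, with a median of -0.51. Scaled to the hybridization controls, 4 of the list were higher and 1 lower with a median of 0.15. Of all 7973 probe sets so scaled, 375 were higher and 227 lower, with a median of 0.14. Of 26 without LIF, 3 were higher and 3 lower, against 5.88% and 8.12%, with a median of 0.26. Cav1, the caveola protein gene, gave 43.3 and 139 in control cells and 14.5 and 17.6 in Akt cells, at least 2.74-fold and 7.92-fold lower, although its other probe set was under the floor on every array. Klf2, a quiescence factor and stem cell gene, gave 73.5 and 4.22 (under the floor) in control cells and 171 and 68 in Akt cells, 2.32-fold and at least 4.31-fold higher. Cav1 with LIF passed the floor on the control array alone, so it could only be lower. Klf2 without LIF passed it on the Akt array alone, so it could only be higher. Without LIF alone, Cited2 and Klf6 were lower in Akt cells (log2 -1.70 and -1.42) and the mitophagy gene Bnip3 higher (1.76). Another list held Ccnd1, Ccnd2, Myc, Id1 and Fbp1, taken as genes that FOXO factors repress, which was not tested here and may not hold for Fbp1. With LIF, 2 of 4 measured were at least 2-fold lower in Akt cells and none higher, Myc (-1.29) and Id1 (-1.43). Without LIF 1 of 5 was higher and none lower, Fbp1, at least 4.56-fold. Fbp1 passed the floor in that pair on the Akt array alone, so it could only be higher.

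p53 and NF-kB act on several of the same genes, so their other targets were set beside the members. Of 15 p53 targets with LIF, 2 were at least 2-fold higher in Akt cells, Mdm2 (log2 1.37) and Plk2 (1.47), and 1 lower, Sfn (-2.22), with a median of 0.44 against 0.01 for all genes. Without LIF, Sesn1 was higher (1.24) and Sfn lower (-3.14), against 5.88% and 8.12% of all genes. The median was 0.07 for the list and 0.06 for all genes. Sesn1 also stands among the other FOXO targets counted above. Cdkn1a, Mdm2 and Plk2 were all higher in Akt cells with LIF, and their values without LIF were -0.02 and 0.07, 0.68, and -0.54. Mdm2 and Plk2 were named for being higher with LIF, so Cdkn1a having their sign says nothing on p53. Besides Sfn, the genes of the list lower with LIF were Xpc (-0.77), Perp (-0.50) and Sesn1 (-0.28), and the others were higher. Gadd45a, also a p53 target, was 0.12 higher. The part of p53 in the member values was not tested. Of 14 NF-kB targets without LIF, 7 were at least 2-fold lower in Akt cells and 1 higher, against 8.12% and 5.88% of all genes, with a median of -0.87. Of the 14, Ccl2, Cxcl1, Cxcl10, Birc3 and Bcl3 passed the floor in this pair on the control array alone, so they could only be lower. Nfkbie passed it on the Akt array alone, so it could only be higher. The count and the median thus include genes whose direction was fixed by the floor, and a shift of the list was not tested. Flooring at the 60th percentile left 3 of 8 lower, 0 higher and a median of -0.51, with 386 lower and 232 higher of all 5434 probe sets. Among the 7 were Cxcl10 (at least 7.81-fold), Ier3 (log2 -1.68), Junb (-1.33), Nfkb2 (-1.17) and the inhibitor gene Nfkbia (-1.14, with another probe set at -0.92). These genes were named for being lower in that comparison, so Gadd45b having their sign says nothing on NF-kB. The genes of the list that were higher there were Nfkbie (at least 1.06), Birc2 (0.41) and Nfkbib (0.19), and Sod2 was higher too. The part of NF-kB in the member values was not tested. Of 10 NF-kB targets measured with LIF, 1 was lower (Ier3, -1.12) and 1 higher (Icam1, 1.55), with a median of -0.20. Among 23 measured relatives of the members, such as other superoxide dismutases, cyclins and inhibitors, none was at least 2-fold higher and Ccne1 lower (-1.25) with LIF, and without LIF Gadd45g and Ccne1 were higher and Ccni lower (-1.06). The relatives' median was 0.10 with LIF and 0.19 without. After LIF withdrawal the other FOXO targets had a median of -0.13 in each line. No gene of these lists passed the adjusted p of 0.05 in limma for either term.

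**Figure D5:**
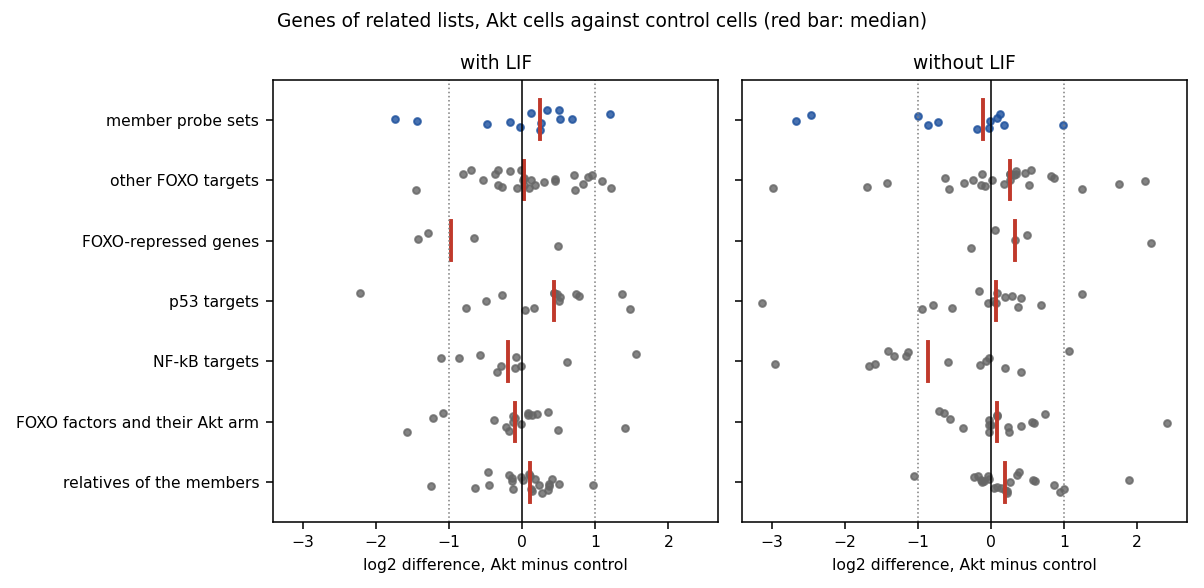
Log2 difference of Akt cells minus control cells (x axis) with LIF (left) and without (right) for the member probe sets and for the measured genes of 6 related lists, 1 point per probe set or gene, genes at the floor on both arrays left out, a red bar at each median and dotted lines at 2-fold. Among the NF-kB targets without LIF, Ccl2, Cxcl1, Cxcl10, Birc3 and Bcl3 passed the floor only on the control array, and Nfkbie only on the Akt array. The other FOXO targets lie on both sides of 0.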

How the data were processed

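The deposited table holds 1 intensity per probe set and array on a linear scale. What the authors did to make the deposited intensities (software, version, scaling) is, in the sources used here, not stated. Of 12488 probe sets, 66 array controls were left out. Quantile normalization used limma 3.58.1 (R 4.3.3). Values were floored at the 40th percentile (15.8), and log2 was taken. The platform annotation paired 10833 probe sets with 1 symbol, 396 with several and 1193 with none, and 10817 of the 10833 were found by gene identifier in the RefSeq table of GRCm38.p6.

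Each array pair was compared by log2 difference, and at least 2-fold was counted as different. A value at the floor gives a bound. Groups of 1 array allow no test, so lmFit and eBayes (two-sided, Benjamini-Hochberg) fitted line and medium over 8417 probe sets above the floor on at least 1 array. The steps were tested on simulated data. In gene lists, 1 probe set stood for each gene, that of the highest mean log2.

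Members and lists were chosen with earlier results of these data known. Named were all member probe sets, the FOXO and Akt genes, up to 5 genes per list at least 2-fold different between the lines, in both media before 1, and the 3 nearest profiles of 3 members. Sod1, Ccng1, Cdkn1c, the 14-3-3 genes and Icam1 were named after their values were seen. The number of arrays limits the precision.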

Additional observations from a re-analysis of the deposited data

Results flagged for a closer look

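In 3 probe sets the lines or media went opposite ways with a gap of at least 2-fold, a difference that was not tested because it has no residual error with 4 arrays. For Ccng2 the log2 difference after LIF withdrawal was 0.94 in control and -0.31 in Akt cells, a gap of -1.24, and Akt against control was 0.25 with LIF and -0.997 without, the same gap of -1.24. For the first Cdkn1a set it was 0.98 in control and -0.24 in Akt cells, a gap of -1.22, and between the lines 1.20 with LIF and -0.02 without. The other Cdkn1a probe set had 0.71 and 0.10 after LIF withdrawal, which are of 1 sign. For the Txnip s set it was 0.14 in control and -1.05 in Akt cells, a gap of -1.20, and between the lines 0.33 with LIF and -0.86 without. The other Txnip probe set had a gap of 0.60, of the opposite sign.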

How the results depend on the processing

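With values as deposited, 5 member probe sets were at least 2-fold different between the lines without LIF in place of 2, with 14.6% of all probe sets against 13.4%. Scaled to the trimmed mean, 6 in place of 3 were different after LIF withdrawal in control cells, with 13.4% of all under both. In Akt cells that count of 3 became 6 when floored at the 20th percentile and 1 with no floor and an offset of 16, while the share of all probe sets went from 6.38% to 13.7% and 3.5%. At 1.5-fold the counts were 6 between the lines without LIF, 7 for LIF withdrawal in control and 5 in Akt cells, against 31.1%, 33.3% and 21.3% of all probe sets. For limma, 0 members passed for Akt against control, while 1 passed with values as deposited, with 1 probe set per gene and among probe sets above the floor on all 4 arrays (the Gadd45b f set each time), and 2 with no floor. For LIF withdrawal, 0 became 3 with no floor. Of all probe sets, limma called 5 for Akt against control, against 30 as deposited, 17 scaled to the trimmed mean, 254 with no floor, 39 with 1 probe set per gene, 19 with a variance trend and 35 among those above the floor on all arrays, and 0 under the other settings. For LIF withdrawal it called 0, against 191 with no floor, 19 with 1 probe set per gene, 1 with a trend and 27 above the floor on all arrays. Probe sets 2-fold different between the lines with LIF were 260 higher and 278 lower, against 86 and 1297 as deposited, 694 and 747 when floored at the 20th percentile and 128 and 127 at the 60th. The cause of these changes was not tested. No log2 difference of at least 1 in size changed sign under the 6 settings of scaling and floor. Of 336 recomputed member differences, 56 of 56 scaled to the trimmed mean and 56 of 56 scaled to the hybridization controls stayed within the SD between probe sets of one gene, and 11 of 56 as deposited did not. Scaled to the hybridization controls, 62.3% of the probe sets 2-fold different between the lines with LIF were higher in Akt cells, against 48.3%, and 24.6% against 45.0% of those different after LIF withdrawal in Akt cells. As deposited these shares were 6.22% and 44.7%, 17.5% against 41.6% between the lines without LIF, and 30.6% against 53.8% for LIF withdrawal in control cells. No paired analysis was possible because each group is 1 array. Leaving out an array leaves no residual degree of freedom. Values near the floor, as for Cdkn1b and for Irs2 in Akt cells, limit what can be seen.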
